A study of Mus musculus with 12 samples.

Results

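Hrk encodes harakiri, a small BH3-only protein of the Bcl2 family, and the family decides at the outer mitochondrial membrane whether a cell enters apoptosis. Pro-survival members (Bcl2, Bcl2l1, Bcl2l2, Mcl1) hold the pore-forming members such as Bak1 in check. BH3-only members (Hrk, Bcl2l11, Bid, Bad, Bmf) bind the pro-survival proteins and release that hold. Hrk is a largely neuronal gene, and in cultured rat cerebellar granule neurons and sympathetic neurons its RNA (Dp5 in rat) is induced through JNK and Jun when trophic support is withdrawn.

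The 10 genes described here are Hrk, Bcl2, Bcl2l1, Bcl2l2, Bcl2l11, Mcl1, Bak1, Bid, Bad and Bmf, out of 22180 genes with a row of their own on the array. Each was matched by its symbol in the platform annotation, and the row with the highest mean was used. All 10 had such a row. Hrk was chosen by its adjusted p and its difference for genotype in these same arrays, and the others because they belong to its family. Their genotype differences are therefore given as a description and not as a test. The sex difference, the interaction of sex with genotype and the slope on choroid plexus content were tested. Hrk's place past the threshold also rests on its small spread within groups, which these tests share, so for Hrk they are not free of the choice.

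RNA of whole cerebellum was hybridised on 12 Affymetrix arrays, 1 for each mouse, with 3 mice in each of 4 groups. KO_female and KO_male mice were Ciz1-/-. WT_female and WT_male mice are called wild type in the source names and Ciz1+/+ in the extraction protocol, while their genotype field reads Ciz1+/-. Tissue was taken at 10 months according to the extraction text, or between 6 and 10 months according to the overall description. Neither the making of the Ciz1 allele nor the strain is described in the labels. Ciz1, a nuclear protein of DNA replication and Xist anchoring, averaged 7.13 ± 0.18 on the log2 intensity scale in KO mice and 8.76 ± 0.08 in WT mice (SD, n = 6 each).

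The tissue carried the markers of cerebellum. The granule cell gene Gabra6 lay at 11.81 to 12.12 in KO arrays and 11.71 to 12.12 in WT arrays, and the Purkinje cell gene Calb1 at 12.25 to 12.43 in KO arrays and 12.25 to 12.49 in WT arrays. Choroid plexus, a tissue of the neighbouring ventricle, varied between arrays, with Ttr at 7.59 to 13.1 in KO arrays and 8.88 to 13.3 in WT arrays. In whole tissue, fewer cells of a type and less RNA per cell cannot be told apart.

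The upstream sequence of Hrk is shown because Hrk was the member whose RNA level separated the groups. The 250 bases before its transcription start lie at chr5:118169514-118169763 on the plus strand of GRCm38.p6 (RefSeq), and the capitals mark the match to TGANGTAA, an ATF-type element.
Hrk: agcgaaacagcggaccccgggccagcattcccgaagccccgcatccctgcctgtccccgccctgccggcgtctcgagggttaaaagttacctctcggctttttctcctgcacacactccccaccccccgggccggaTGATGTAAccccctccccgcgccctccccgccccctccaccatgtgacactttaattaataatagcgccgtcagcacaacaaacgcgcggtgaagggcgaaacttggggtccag

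The match, TGATGTAA, ends 106 bases before the start. TGANGTAA was searched on both strands of the 250 upstream bases of every RefSeq promoter in the table and was present in 939 of 32851 (2.86%). All 10 members matched the table, with 16 promoters between them, and 2 of these held it: that of Hrk and that of Bcl2, where the letters were TGAAGTAA, 61 bases before the start. The AP-1 element TGANTCA was in 6.75% of all promoters and in none of the 16, and the cyclic AMP element TGACGTCA in 1.55% and in none of the 16. A match is a description of letters, and no binding was measured here.

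Hrk was lower in every KO array than in every WT array, and within each genotype it was lower in every female than in every male. Its log2 intensity was 5.72, 5.76 and 5.72 in KO_female, against 6.11, 6.11 and 6.20 in WT_female. In males it was 5.93, 6.07 and 6.03 in KO_male, against 6.26, 6.41 and 6.34 in WT_male. No array of any group reached into the range of another group. On the linear scale the mean intensity was 58.8 ± 6.55 in KO mice and 75.7 ± 6.39 in WT mice (SD, n = 6 each).

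**Figure D1:**
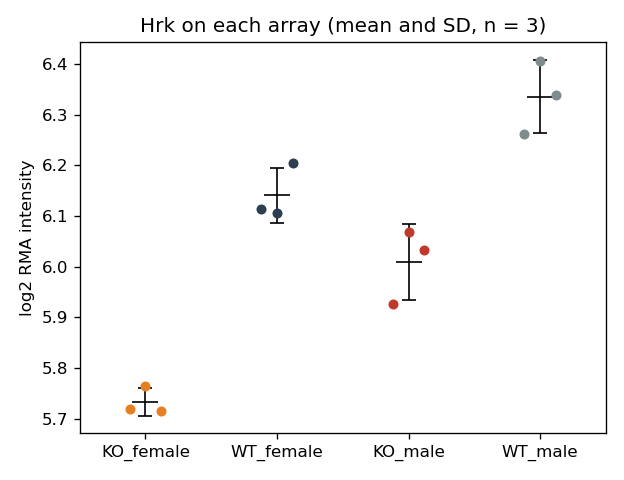
Log2 RMA intensity of Hrk on each of the 12 arrays, by group. Points are arrays, and horizontal marks and bars are the mean and SD of 3 mice. KO_female lies lowest (5.72 to 5.76) and WT_male highest (6.26 to 6.41), with KO_male and WT_female between them.

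KO minus WT, averaged over the sexes, the difference was -0.37 on the log2 scale (SE 0.04; 95% interval -0.46 to -0.27), or -22.4% in intensity. It was -0.41 in females (SE 0.06) and -0.33 in males (SE 0.06). Across both sexes 5 of 22180 genes (0.0225%) passed the adjusted threshold of 0.05 in limma, and Hrk was the 1 member of 10 among them. Unadjusted p was under 0.05 in 2053 genes (9.26%), with Hrk and Mcl1 among them. The adjusted p that placed Hrk inside the threshold was 0.0166, and the nearest member outside it was Mcl1 at 0.337 (both from limma). These values chose the gene and are not evidence beyond that choice. Within one sex no member passed, where 5 genes (0.0225%) passed in females and 5 genes (0.0225%) in males. The call of Hrk was lost when any 1 of 7 arrays was left out. These were each of the 3 KO_female arrays, KO_male replicate 3, WT_female replicate 2, and both replicate 2 and replicate 3 of WT_male. Adjusted p over the 12 arrays left out in turn was 0.0309 to 0.0854 (limma), while the difference stayed between -0.39 and -0.35.

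The order of the group means of Hrk, low to high, was KO_female (5.73 ± 0.03), KO_male (6.01 ± 0.07), WT_female (6.14 ± 0.05) and WT_male (6.34 ± 0.07; SD, n = 3 each). The step between neighbouring means was 0.28, 0.13 and 0.19, against a pooled within-group SD of 0.06. Between the ranges of KO_male and WT_female the gap was 0.04, and between those of WT_female and WT_male 0.06, so these neighbours were separated by no more than about the spread of 1 group. Among all genes, 51 of 22180 (0.23%) had every KO array below every WT array. None of the 4 groups overlapped another in 5 genes (0.0225%). Besides Hrk these were 1110008P14Rik, Ccdc137, Oxct1 and Ube4b, named after their values were seen. Oxct1, a mitochondrial enzyme of ketone body use, was the only other gene with the groups in the order of Hrk, of 2 genes in all (0.00902%), and its smallest gap between groups was 0.0042.

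Hrk varied little within groups. Its pooled within-group SD was 0.060 on the log2 scale, and 10.7% of genes had one as small. The files give no detection call. Hrk averaged 6.05 over the 12 arrays, and 32.0% of all genes were as dim or dimmer. Of 1394 olfactory and vomeronasal receptor genes, looked at after the values were seen, 9.25% were as bright as Hrk or brighter. How much of the signal of Hrk is specific was not tested. A difference measured close to background can understate the fold change of the RNA. Probes differ between genes, so such comparisons of intensity are rough.

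Sex was tested for every member. The difference between the sexes was not used in choosing them, but the small within-group SD that narrows Hrk's interval was part of its choice. Hrk differed by -0.24, females minus males (SE 0.04; 95% interval -0.33 to -0.14), and did not pass over all genes (limma adjusted p = 0.275). The female mean was 5.94 ± 0.23 and the male mean 6.17 ± 0.19 (SD, n = 6 each, both genotypes). All 6 females lay below the 3 males of their own genotype. An exact permutation test that shuffled sex within genotype gave an unadjusted two-sided p = 0.005, the smallest its 400 arrangements allow, as 1 of 10 such tests. That pattern, females below males without overlap in both genotypes, was found in 162 of 22180 genes (0.73%). In the other 9 members the difference ran from -0.15 in Bcl2l11 to 0.14 in Bid, and their unadjusted exact permutation p lay between 0.165 and 0.99. None of the 10 members passed the adjusted threshold for sex, which 8 of 22180 genes (0.0361%) did in limma. At an unadjusted p under 0.05 were 1758 genes (7.93%) and 1 member, Hrk.

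The interaction asks whether the genotype difference was the same in both sexes. For Hrk it was -0.08, females minus males (SE 0.09; 95% interval -0.27 to 0.11; limma adjusted p = 0.999). No member passed, and none of the 22180 genes did (0%), with 1070 genes (4.82%) at an unadjusted p under 0.05 in the same limma fit, none of them a member. The largest interactions among the members were -0.32 in Bcl2l11 (95% interval -0.79 to 0.16) and 0.21 in Bcl2l2 (95% interval -0.05 to 0.47). With 3 mice a group these intervals are too wide to call the sexes alike or different.

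**Figure D2:**
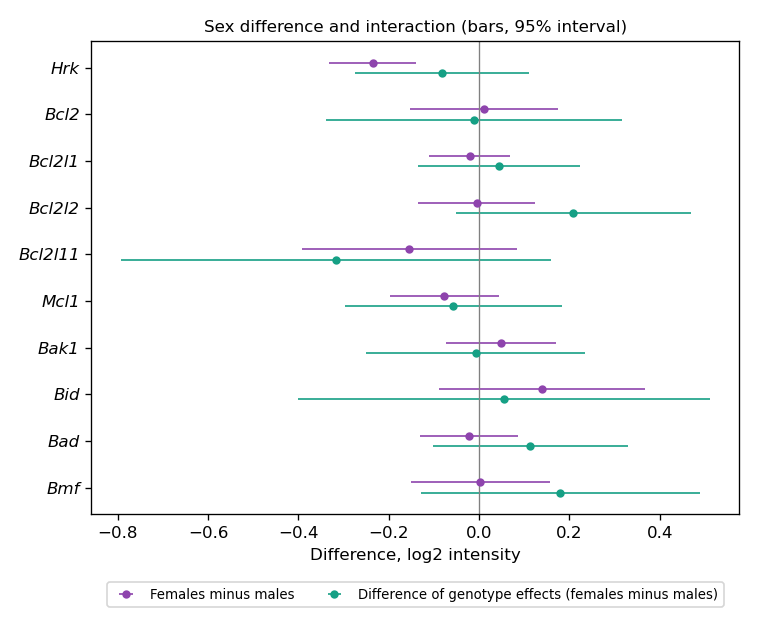
Sex difference (females minus males, averaged over genotype) and interaction (KO minus WT in females, minus the same in males) for each of the 10 members, in log2 intensity. Points are limma estimates and bars their 95% intervals. The sex difference of Hrk, -0.24, is the only one whose interval does not reach 0.

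Among the pro-survival members, Mcl1, a short-lived protein on which many cells depend, had the second largest difference of the 10. Its log2 intensity was 8.41, 8.50 and 8.23 in KO_female, against 8.53, 8.67 and 8.62 in WT_female. In males it was 8.57, 8.50 and 8.39 in KO_male, against 8.64, 8.64 and 8.68 in WT_male. The groups did not overlap within either sex, and across the sexes 5 of the 6 KO arrays lay below the lowest WT array. KO lay below WT without overlap in 7.41% of all genes in females, with Hrk, Mcl1 and Bcl2l11 among them. In males it did so in 5.64%, and in both sexes in 0.748%, each with Hrk and Mcl1 among them. The difference was -0.20 (SE 0.05; 95% interval -0.32 to -0.08), with -0.23 in females and -0.17 in males. A second, dimmer row of Mcl1 did not share it: it differed by 0.01 (SE 0.08), and its correlation with the brighter row over the 12 arrays was 0.11. With both rows averaged the difference was -0.10, and in males -0.05.

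Bcl2, Bcl2l1 and Bcl2l2 showed no such separation. Bcl2, the founding pro-survival protein, averaged 9.43 ± 0.06 in KO mice and 9.42 ± 0.17 in WT mice (SD, n = 6 each), a difference of 0.01 (95% interval -0.16 to 0.17). All 6 KO arrays lay inside the WT range. Its second row differed by -0.00 (SE 0.06). Bcl2l1, which encodes Bcl-xL, the main pro-survival protein of adult neurons, averaged 8.55 ± 0.04 in KO mice and 8.56 ± 0.05 in WT mice (SD, n = 6 each), and varied by only 0.14 over all 12 arrays. Its interval, -0.10 to 0.08, is the narrowest among the members. Bcl2l2, which encodes Bcl-w, differed by -0.04 (95% interval -0.17 to 0.09), with 0.06 in females and -0.14 in males.

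**Figure D3:**
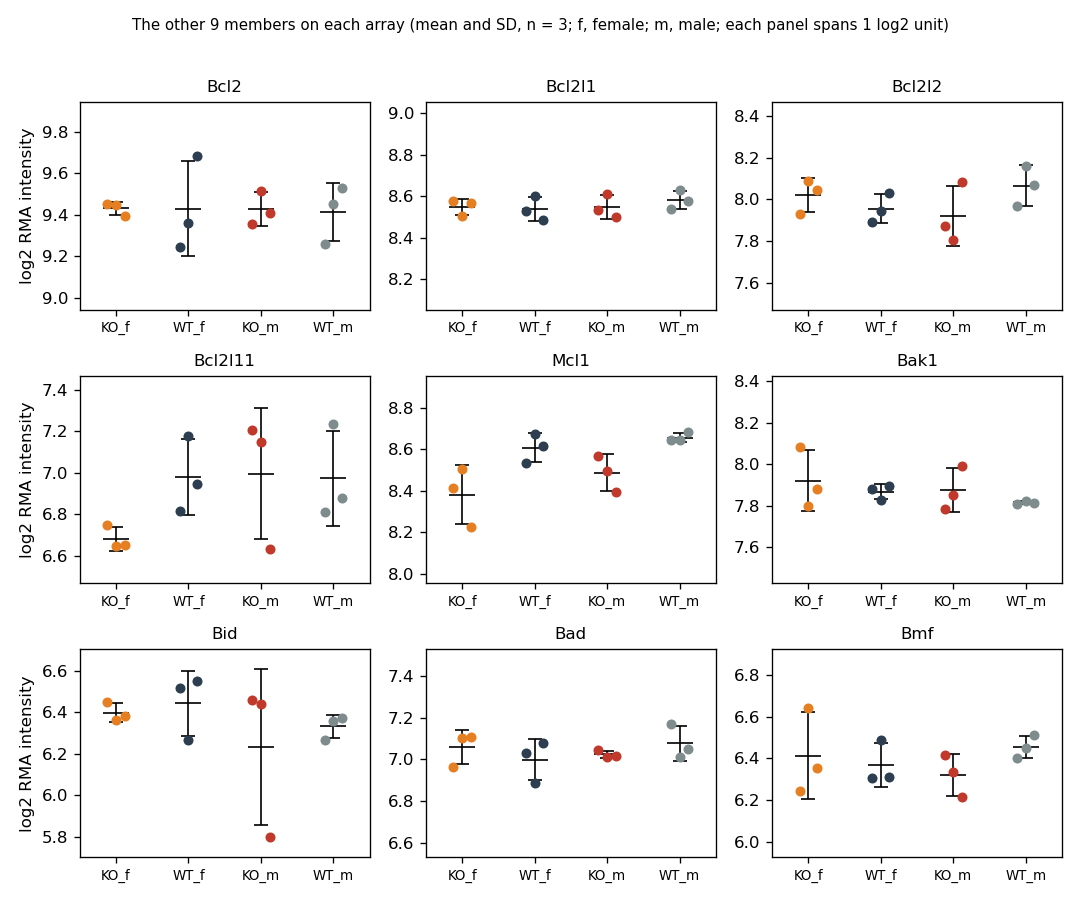
Log2 RMA intensity of the other 9 members on each array, by group, in panels that all span 1 log2 unit. Points are arrays, and marks and bars are the mean and SD of 3 mice. Mcl1 lies lower in KO than in WT within each sex, Bid has 1 low KO_male array at 5.80, and the other panels overlap in at least 1 sex.

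Bak1, the pore-forming effector of the set, averaged 7.90 ± 0.12 in KO mice and 7.84 ± 0.04 in WT mice (SD, n = 6 each), a difference of 0.06 (95% interval -0.07 to 0.18). KO arrays lay on both sides of the WT range, 2 below it, 2 above it and 2 inside. The scatter was the larger in KO mice, which was not tested.

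Among the remaining BH3-only members, Bcl2l11, which encodes Bim, had a log2 intensity of 6.75, 6.65 and 6.65 in KO_female, against 6.82, 7.18 and 6.95 in WT_female, without overlap. In males it was 7.21, 7.15 and 6.63 in KO_male, against 6.81, 7.23 and 6.88 in WT_male, and the groups overlapped. The difference was -0.14 over both sexes (95% interval -0.38 to 0.10), with -0.30 in females and 0.02 in males. Its pooled within-group SD was 0.22, and 90.5% of genes had one as small. Without KO_male replicate 3, the low male, its difference over both sexes was -0.05 and in males 0.20.

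Bid, which links death receptors to mitochondria once caspase-8 has cut it, had 1 array far from the rest. It measured 6.45, 6.36 and 6.38 in KO_female, against 6.52, 6.26 and 6.55 in WT_female. In males it was 6.46, 6.44 and 5.80 in KO_male, against 6.27, 6.36 and 6.37 in WT_male. The low value is again KO_male replicate 3. The difference over both sexes was -0.07 (SE 0.10), and 0.04 (SE 0.06) without that array. In males it was -0.10, and 0.12 without it.

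Bad, whose activity is set by phosphorylation and binding to 14-3-3 proteins, averaged 7.04 ± 0.06 in KO mice and 7.04 ± 0.09 in WT mice (SD, n = 6 each), with a 95% interval of -0.10 to 0.11 for the difference. Bmf, held on the cytoskeleton by a dynein light chain, averaged 6.37 ± 0.16 in KO mice and 6.41 ± 0.09 in WT mice (SD, n = 6 each), with an interval of -0.20 to 0.11. For Bad all 6 KO arrays lay inside the WT range, and for Bmf 3 of 6 did. Of the 10 members 7 were lower and 3 higher in KO mice, with a median of -0.04. With arrays left out 1 at a time, 5 to 8 were lower, the 5 without KO_male replicate 3. For comparison, the median over all genes was -0.00 and 50.4% of genes were lower.

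**Figure D4:**
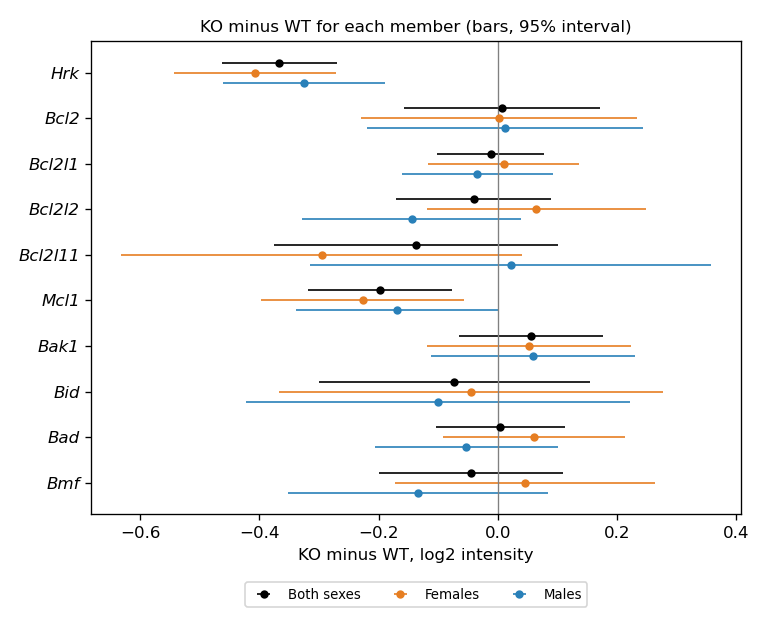
KO minus WT in log2 intensity for each of the 10 members, over both sexes, in females and in males. Points are limma estimates and bars their 95% intervals. Hrk lies at -0.37, -0.41 and -0.33, Mcl1 at -0.20, -0.23 and -0.17. The interval of Mcl1 in males just reaches 0, and those of the other 8 members span 0 in each of the 3 comparisons.

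The members lie on 8 chromosomes. Bmf, Bcl2l11 and Bcl2l1 share chromosome 2 with Ciz1, and their differences were -0.04, -0.14 and -0.01. Hrk is on chromosome 5 and Mcl1 on chromosome 3.

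Markers of several glial cell types lay mostly to one side in KO mice, beside the difference of Hrk. Of 15 measured oligodendrocyte markers 15 were lower in KO mice (median -0.24), and their mean level was 8.53 to 8.96 in KO arrays and 8.79 to 9.01 in WT arrays. Bergmann glia and astrocyte markers were lower in 8 of 10 (9.90 to 10.04 in KO arrays, 9.95 to 10.07 in WT arrays), and microglia markers higher in 10 of 11 (7.43 to 7.65 in KO arrays, 7.38 to 7.60 in WT arrays). Of the granule cell markers 5 were lower and 6 higher (10.78 to 10.93 in KO arrays, 10.83 to 10.90 in WT arrays), and of the Purkinje cell markers 3 were lower and 5 higher (10.17 to 10.34 in KO arrays, 10.15 to 10.27 in WT arrays). With the sexes pooled, the ranges of KO and WT arrays overlapped for each of these 5 lists. Within each sex the Bergmann glia and astrocyte level did not overlap. It was 9.900 to 9.947 in KO_female against 9.954 to 10.016 in WT_female, and 9.912 to 10.035 in KO_male against 10.050 to 10.067 in WT_male. The oligodendrocyte level was apart in females (8.53 to 8.63 in KO_female, 8.86 to 9.01 in WT_female) and overlapped in males. The microglia, granule cell and Purkinje cell levels overlapped within each sex. Of the markers in every cell type list 1 passed over all genes, the oligodendrocyte gene Opalin, at 6.74 to 7.52 in KO arrays and 7.44 to 7.71 in WT arrays (difference -0.45; limma adjusted p = 0.0370). No marker has a true 0 on this scale. With the oligodendrocyte level of each array as a covariate the difference of Hrk was -0.40, against -0.37 without it. The call of Hrk was lost (limma adjusted p = 0.459). In that fit 2 genes passed in all, against 5 without the covariate. The correlation of Hrk with the oligodendrocyte level over the 12 arrays was 0.71, and -0.32 after removal of the group means. With the Bergmann glia and astrocyte level it was 0.81, and 0.15 after removal. These values are descriptions, and arrays of a group share its genotype and sex. The part of the other cell types in the difference of Hrk was not tested.

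Choroid plexus content was tested for every member, since its slope within groups is estimated apart from the genotype contrast. For Hrk this test is not free of the choice. Its small within-group SD was part of that choice and favours a slope near 0. Each of the 16 measured choroid plexus markers had the lower mean in KO mice, and their mean level was 6.55 to 7.58 in KO arrays and 6.68 to 7.98 in WT arrays. The slope of Hrk on that level was -0.00 log2 units per unit (95% interval -0.12 to 0.11; limma adjusted p = 0.996). None of the 10 members passed, where 38 of 22180 genes (0.171%) did in limma. The unadjusted p was under 0.05 in 1367 genes (6.16%), none of them a member. The slopes of the others ran from -0.08 in Bak1 to 0.12 in Bmf. With the choroid plexus level in the fit the difference of Hrk was -0.37 (SE 0.05) and that of Mcl1 -0.18 (SE 0.06), and the call of Hrk was lost (limma adjusted p = 0.0742).

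The rest of the death and survival machinery showed no gene past the threshold. In 7 lists with 104 genes, 89 were measured, 0 passed for genotype over both sexes in limma, and 8 (8.99%) had an unadjusted p under 0.05, against 2053 of 22180 genes (9.26%) overall. Of those 8, 6 were lower and 2 higher in KO mice. The other listed genes were not analysed here.

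**Figure D5:**
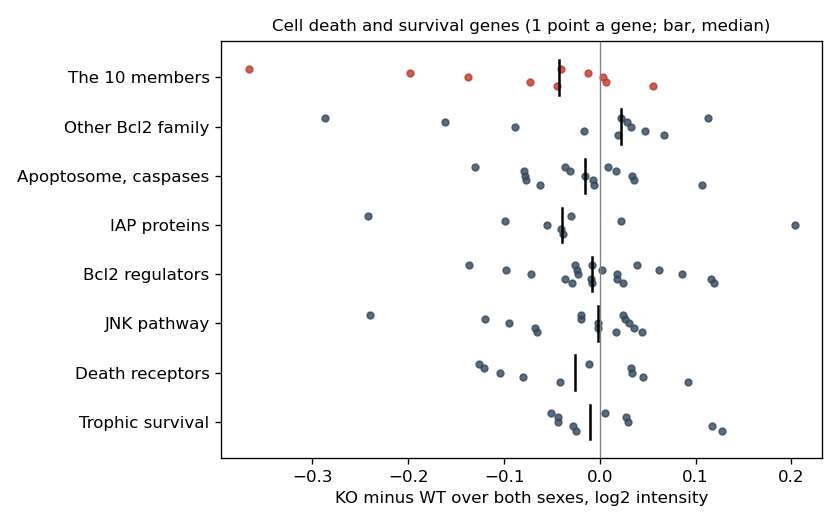
KO minus WT over both sexes, in log2 intensity, for the 10 members and for the genes of 7 lists of cell death and survival genes. Each point is a gene and each black bar the median of its list. Hrk (-0.37) is the lowest point of all, followed by Bcl2a1a (-0.29).

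Other members of the Bcl2 family had a median of 0.02, with 7 of 11 measured genes higher and 4 lower. Bcl2a1a, a pro-survival gene of blood cells and microglia with near-identical copies that the array may not tell apart, averaged 5.64 ± 0.13 in KO mice and 5.93 ± 0.06 in WT mice (SD, n = 6 each). Its difference of -0.29 (SE 0.05) did not pass (limma adjusted p = 0.141), and the 6 KO arrays, at 5.43 to 5.77, all lay below the WT arrays, at 5.83 to 6.01, as in 51 of 22180 genes (0.23%). Bnip3, a mitochondrial BH3 protein of hypoxia and mitophagy, differed by 0.11 (limma adjusted p = 0.569), and Bcl2l14 by -0.16 (limma adjusted p = 0.689).

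The JNK pathway, known upstream of Hrk in rat neurons, had a median of -0.00, with 9 of 15 genes lower, 3 of them at an unadjusted p under 0.05 and 0 past the threshold. Those 3 were the transcription factors Jun and Jund and the kinase gene Mapk9, which encodes JNK2. Over all genes 50.4% were lower and 9.26% had an unadjusted p under 0.05 in limma. Over the 7 lists together 8.99% had one. Jun averaged 8.89 ± 0.17 in KO mice and 9.13 ± 0.17 in WT mice (SD, n = 6 each), a difference of -0.24 (SE 0.08; limma adjusted p = 0.438), and the groups overlapped. Jund differed by -0.12 (SE 0.05; limma adjusted p = 0.501) and Mapk9 by -0.10 (SE 0.04; limma adjusted p = 0.532).

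The apoptosome and caspase list, which also holds Casp8, Vdac1, Vdac2 and Vdac3, had a median of -0.01. In it 10 of 15 genes were lower and none had an unadjusted p under 0.05. Its leading genes were Casp6 (-0.13), Apaf1, the scaffold that cytochrome c activates (-0.08), and Diablo, which relieves the block of caspases (-0.08), with limma adjusted p from 0.620 to 0.657. IAP proteins, which block caspases, had a median of -0.04, with 6 of 8 lower. Birc3 differed by -0.10, Naip5 by 0.20 and Naip2 by -0.24 (limma adjusted p from 0.501 to 0.718). Proteins that bind or turn over Bcl2 members had a median of -0.01, with 11 of 20 lower. Ywhaq, a 14-3-3 protein, differed by -0.14, Sfn by 0.12 and Usp9x, which stabilises Mcl1, by -0.07 (limma adjusted p from 0.517 to 0.620).

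The death receptor list had a median of -0.03, with 6 of 10 lower. Cflar, an inhibitor of caspase-8, differed by -0.08, Tnfrsf21 by -0.10 and Tradd by -0.12 (limma adjusted p from 0.617 to 0.671). The trophic survival list had a median of -0.01, with 5 of 10 lower. Igf1 differed by 0.13, Akt2 by 0.12 and Ntrk2, the BDNF receptor, by -0.04 (limma adjusted p from 0.495 to 0.746).

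The genes most like Hrk over the 12 arrays were ranked by Pearson's r among 14561 genes, leaving out the dimmest 25% and those with predicted, Riken, receptor or small RNA symbols. The r values describe these arrays and include the group differences that chose Hrk. The highest were Golm2 (0.94), Usp11 (0.92), Srsf1 (0.91), Dipk2a (0.91) and Arhgef6 (0.91). After removal of the group means they were 0.75, 0.61, 0.22, 0.75 and 0.67 in the same order. The first r contains the second, so the choice of these genes favours both. The lowest were Tpra1 (-0.89), the vascular growth factor gene Vegfa (-0.89), Mfsd13a (-0.89), the phagocyte gene Cd68 (-0.89) and the chemokine gene Ccl3 (-0.88). Of these Mfsd13a kept -0.64 after removal of the group means, and the other 4 lay between -0.22 and 0.05.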

How the data were processed

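Total RNA of mouse cerebellum was measured on 12 arrays. Per the labels, the authors made RMA values at the core-exon level with Affymetrix Expression Console. The submitters' processing notes list Transcriptome Analysis Console 3.0. RMA corrects background, makes the arrays' distributions alike and so removes any overall shift. Each deposited value is a linear intensity, and the array medians run between 96.5 and 98.7. The number of arrays limits the precision.

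The log2 of each value was taken here with no pseudocount and no filter. Of 41345 rows, 23521 had 1 gene symbol in GEO's platform annotation, 1814 several and 16010 none; rows with 1 symbol were kept, the brightest for the 1082 genes with several, giving 22180 genes. limma 3.58.1 in R 4.3.3 fitted 1 mean per group over all 12 arrays (lmFit, eBayes); tests were two-sided, with Benjamini-Hochberg adjustment over all genes and a threshold of 0.05. The fit was also run on simulated data with independent noise in each gene, which leaves out variation that genes share. The outcome is not quoted here. Groups came from the source names, and replicate numbers only name an array. Nothing says whether the 6 mice of a genotype came from separate litters. The 10 members, the 7 lists, the cell type markers and the tests were chosen with earlier results of these data known. Named were the members, the genes of each list past the threshold or otherwise the 3 with the smallest p, and the 5 highest and 5 lowest correlations with Hrk. Promoters came from RefSeq's GRCm38.p6; of its windows, only bases before the start were used.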

Additional observations from a re-analysis of the deposited data

Results flagged for a closer look

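In the 6 KO arrays Bid was lowest in KO_male replicate 3, at 5.80 on the log2 scale, and its gap to the next array took 0.855 of the whole range of the 6, above Dixon's critical value at the 95% level. The other 5 KO arrays lay between 6.36 and 6.46 and the 6 WT arrays between 6.26 and 6.55. The same array was also the lowest of the 12 for Bcl2l11, at 6.63, and for Bmf, at 6.21. In both it lay close to the next array, KO_female replicate 2 at 6.65 for Bcl2l11 and KO_female replicate 1 at 6.24 for Bmf. KO_male replicate 3 was not low for Hrk, at 6.03. Chance flags about 1 in 20 groups, and 20 groups were looked at, 10 members in 2 genotypes.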

How the results depend on the processing

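No paired analysis was possible because the labels give no replicate number that groups share. The genotype difference of Hrk lay between -0.40 and -0.35 in every setting in which it was fitted. It could not be fitted over genes above the median brightness, where Hrk, Bcl2l11, Bid and Bmf drop out. Its call, as the count of members past the threshold, was 1, and 0 over those brighter genes, with the choroid plexus covariate and with the oligodendrocyte covariate, and 0 to 1 with arrays left out. No pathway gene, and no member for sex, interaction or choroid plexus slope, passed in any setting run. Counts over all genes moved more. For genotype over both sexes (5) they were 14 over brighter genes, 18 with an intensity trend, 3 with the choroid plexus covariate, 2 with the oligodendrocyte covariate and 3 to 8 with arrays left out. For females (5) they were 16, 26, 4, 1 and 3 to 7 in the same order. For males (5) the count was 2 with the oligodendrocyte covariate and 2 to 4 with arrays left out. For the interaction (0) it was 2 over brighter genes, 2 with the trend and 0 to 1 with arrays left out. For sex (8) it was 13 over brighter genes and 15 with the trend. For the choroid plexus slope (38) it was 14 over brighter genes, 55 with the trend, 8 with the oligodendrocyte covariate and 21 to 42 with arrays left out. The causes were not tested. Over brighter genes fewer genes entered the fit, and the effect of that alone was not tested either.

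Differences near 0 that did not pass turned sign. For genotype over both sexes, leaving out arrays gave -0.039 to 0.070 in Bcl2, -0.028 to 0.0036 in Bcl2l1, -0.13 to 0.035 in Bid and -0.024 to 0.027 in Bad, and the oligodendrocyte covariate gave -0.029 in Bcl2 and 0.017 in Bcl2l2. For sex, quantile normalization gave Bcl2l2 0.0084 and Bmf -0.0040, the mean of all rows gave Bcl2 -0.0030, and the oligodendrocyte covariate gave Bcl2 -0.0028 and Bcl2l2 0.015. For the choroid plexus slope, quantile normalization gave Bcl2 0.0080, and the oligodendrocyte covariate gave Bcl2l1 -0.038 and Bcl2l2 0.024. With arrays left out, sex ran from -0.042 to 0.0061 in Bad, -0.053 to 0.056 in Bcl2, -0.034 to 0.036 in Bcl2l2 and -0.055 to 0.046 in Bmf. The interaction ran from -0.089 to 0.054 in Bak1, -0.10 to 0.12 in Bcl2, -0.16 to 0.17 in Bid and -0.12 to 0.020 in Mcl1. The slope ran from -0.019 to 0.091 in Bad, -0.10 to 0.088 in Bcl2, -0.029 to 0.029 in Bcl2l1, -0.046 to 0.16 in Bcl2l11, -0.073 to 0.022 in Bcl2l2, -0.14 to 0.017 in Bid and -0.025 to 0.044 in Hrk. Left-out arrays were taken 1 at a time.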

Other observations

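Within groups, after removal of the group means, Bcl2 was the member whose values followed those of Hrk most closely over the 12 arrays (r = 0.74, given as a description), although its group means did not differ as those of Hrk did (r = 0.12 before removal). Bcl2l2 followed at 0.51. The second, dimmer row of Bcl2 had an r of -0.13 with the row used, over the 12 arrays. Mcl1, which had an r of 0.78 with Hrk over the 12 arrays, had one of -0.05 once the group means were removed.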
